A study of Mus musculus with 18 samples.

Results

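The genes described here are the Cyp2b cytochromes P450 of mouse liver (Cyp2b9, Cyp2b10 and Cyp2b13), the xenobiotic receptors Nr1i2 and Nr1i3, and the Cyp3a cytochromes Cyp3a11 and Cyp3a13. They were taken by gene symbol from the array's probe table. Of 8 genes named, 7 had at least 1 probe set with a single symbol (10 probe sets in all), out of 18193 genes with such a probe set. The eighth, Por, the reductase that passes electrons to the microsomal cytochromes P450, was not analysed here. The set was chosen by gene family, with the high values of Cyp2b9 and Cyp2b13 on high-fat diet (HFD) against chow known, so all comparisons of HFD with chow are given for these 7 genes as a description without a test.

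Liver RNA of wild-type CD1 mice, an outbred stock, was hybridised to 18 Affymetrix arrays, 3 in each of 6 groups. For prevention, mice were first given vehicle or CMPF, a circulating furan fatty acid metabolite, at 6 mg/kg per day for 1 week and then an HFD with 60% of its energy from fat for 4 weeks (the series text says up to 5). For reversal, mice had 6 weeks of HFD and then 2 weeks of vehicle or CMPF at that dose. Each model thus had a chow control, an HFD control given vehicle and an HFD group given CMPF. The labels give no sex or age, do not say whether chow mice were injected or how arrays relate to animals, and name no genetic change in any group. Every p-value therefore measures the spread between arrays. The arrays are from whole liver, where a change in the share of a cell type and a change of RNA per cell cannot be told apart.

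Cyp2b enzymes oxidise drugs, steroids and fatty acids in the endoplasmic reticulum of hepatocytes. Their textbook regulator is the constitutive androstane receptor CAR (Nr1i3), which moves to the nucleus in response to phenobarbital-like compounds. Its relative, the pregnane X receptor PXR (Nr1i2), is the main xenobiotic regulator of Cyp3a genes, of which Cyp3a11 is a major hepatic member in mice. Cyp2b10 is the classical CAR target in mouse liver, whereas Cyp2b9 and Cyp2b13 are known for higher expression in females.

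In the RefSeq gene table (GRCm38.p6) the 3 Cyp2b genes lie next to each other on chromosome 7, within 313 kb that hold no other protein-coding gene: Cyp2b10 at chr7:25897658-25926624, Cyp2b13 at chr7:26061388-26096197 and Cyp2b9 at chr7:26173350-26210661. Their start regions are shown because Cyp2b9 and Cyp2b13 moved together on the arrays and the main probe set of Cyp2b10 did not. Each sequence is a RefSeq window from 250 bases before to 50 bases after the transcript start used in the table of windows. That start is the first base of the span above for Cyp2b10, and lies inside the spans of Cyp2b9 and Cyp2b13. All are on the plus strand, and capitals mark AGGTCA, a core motif of nuclear receptor sites. The windows are chr7:26173159-26173458, chr7:26061245-26061544 and chr7:25897408-25897707 in this order.
Cyp2b9: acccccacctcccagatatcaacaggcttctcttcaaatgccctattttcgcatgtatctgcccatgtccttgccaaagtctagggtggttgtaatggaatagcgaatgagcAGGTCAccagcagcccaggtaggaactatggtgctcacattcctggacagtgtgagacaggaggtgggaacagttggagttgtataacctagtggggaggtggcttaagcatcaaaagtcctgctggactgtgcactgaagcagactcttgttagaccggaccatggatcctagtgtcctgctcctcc
Cyp2b13: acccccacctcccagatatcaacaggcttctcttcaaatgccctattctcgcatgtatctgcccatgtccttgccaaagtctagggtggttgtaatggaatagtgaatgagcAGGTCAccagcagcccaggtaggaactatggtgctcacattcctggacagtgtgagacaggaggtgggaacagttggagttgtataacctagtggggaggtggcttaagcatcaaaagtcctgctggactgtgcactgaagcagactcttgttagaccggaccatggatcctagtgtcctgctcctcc
Cyp2b10: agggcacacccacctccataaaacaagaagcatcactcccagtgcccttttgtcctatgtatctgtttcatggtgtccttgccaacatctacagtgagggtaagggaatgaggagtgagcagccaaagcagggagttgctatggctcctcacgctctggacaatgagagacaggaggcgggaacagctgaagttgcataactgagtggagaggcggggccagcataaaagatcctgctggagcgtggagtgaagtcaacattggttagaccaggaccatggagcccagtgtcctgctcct

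The windows of Cyp2b9 and Cyp2b13 were the same at 298 of 300 bases. The differences were T48C and C104T, with Cyp2b9 given before Cyp2b13 and positions counted from 1 at the 5′ end of the window. That of Cyp2b10 matched each of them at 72.9% of aligned columns, and the other 25 pairs of start regions, Por included, at 46.5% to 57.4%. The letters AGGTCA, searched on both strands, begin at -138 from the transcript start of the window in Cyp2b9 and in Cyp2b13. They also begin at -162 in Cyp3a11, and occur in 16.3% of the 32851 windows of the table. AGTTCA (in 14.0% of windows) and TATAAA (13.6%) were found in the Cyp3a11 window alone of these genes, and the STAT motif TTCNNNGAA (8.30%) in none. Matches are letters in these windows only.

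Several facts of the series bear on the values. Prevention CMPF arrays 2 and 3 almost coincided, with 0 of 13228 genes over 2-fold apart, whereas any of the 152 remaining pairs of arrays had 115 or more. They were averaged and counted as 1 sample, so this group has n = 2 and every other group n = 3. Array means were 5.09 in prevention and 5.25 in reversal, so levels are compared within a model. The 3′ to 5′ index of the Gapdh and beta-actin control probe sets, which increases as RNA gets shorter, averaged 1.43 ± 0.512 (SD, n = 3) on prevention chow arrays, and HFD arrays of that model averaged 2.84 ± 0.303 (SD, n = 3). Between CMPF and vehicle it was nearly level, at 2.95 against 2.84 in prevention and 2.63 against 2.62 in reversal. Reversal chow 2 stood apart, with a median correlation of 0.948 with the arrays of its model, where the other arrays of the series had at least 0.975. The hepatocyte markers Alb, Apoa1, Ttr, Serpina1c, Tat and Cps1 were high on every array, their mean between 13.37 and 13.82 on the log2 scale. Low Xist (3.80 to 5.25) and high Y-linked Eif2s3y (8.48 to 9.24) were found on all 18 arrays. The 3 kidney markers stayed below the filter level. The mean of 5 Kupffer cell markers was 6.84 to 7.51 in reversal chow and 7.53 to 8.10 in reversal HFD. That of 2 exocrine pancreas markers was 4.62 to 7.58 in prevention chow and 4.32 to 4.57 in prevention HFD, and 3.83 to 5.82 in reversal chow and 3.76 to 3.93 in reversal HFD. The hepatocyte mean was 13.48 to 13.64 in prevention chow and 13.37 to 13.42 in prevention HFD. The mean of 3 endothelial markers was 8.74 to 9.19 in reversal chow and 8.47 to 8.74 in reversal HFD, just without overlap, and overlapped in prevention. That of 3 cholangiocyte markers was 5.18 to 5.35 in reversal chow and 5.11 to 5.15 in reversal HFD, and 4.62 to 4.79 in prevention chow and 4.81 to 4.85 in prevention HFD. The adipocyte marker Retn was at 4.90 to 5.24 in reversal chow and 4.65 to 4.82 in reversal HFD, and overlapped in prevention. The mean of 4 stellate cell markers (7.66 to 8.80 over all arrays) and the T cell marker Cd3e (5.85 to 6.52) overlapped between chow and HFD in each model. The other markers of the T and B cell and adipocyte lists were below the filter. The part of these cells in the results was not tested.

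Cyp2b9 was high on every HFD array, lower with CMPF and lowest on chow, in both models. In prevention its log2 signal was 6.96, 5.93 and 5.71 on chow, 9.90, 10.32 and 9.42 on HFD, and 8.61, 8.55 and 8.51 with CMPF. In reversal it was 5.47, 3.95 and 6.35 on chow, 10.76, 9.85 and 10.73 on HFD, and 6.69, 6.65 and 8.28 with CMPF. No array of these groups overlapped with another group of its model. The group means were 6.20 ± 0.666, 9.88 ± 0.45 and 8.57 ± 0.0555 (SD, n = 3, 3 and 2) in prevention, and 5.26 ± 1.22, 10.45 ± 0.515 and 7.21 ± 0.928 (SD, n = 3 each) in reversal. HFD exceeded chow by 3.68 in prevention and by 5.19 in reversal, a mean difference of 12.8-fold and 36.6-fold. The lowest value, in reversal chow 2, is that of the array that stood apart, and without it the reversal difference was 4.54. The index was also higher on HFD than on chow in prevention, and lower in reversal (2.62 on HFD against 3.15 on chow). Whether it had a part in these values was not tested.

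Cyp2b13 followed the same order in prevention. Its log2 signal there was 5.17, 5.13 and 4.92 on chow, 8.55, 9.94 and 6.77 on HFD, and 5.47, 6.98 and 7.19 with CMPF. In reversal it was 4.76, 4.94 and 4.68 on chow, 9.36, 7.25 and 7.97 on HFD, and 4.62, 4.68 and 4.66 with CMPF. All 3 reversal CMPF arrays were thus slightly below the lowest chow array, while the HFD arrays were far above. In prevention the CMPF samples lay above every chow array, and HFD 3 was below the mean of CMPF 2 and 3. HFD exceeded chow by 3.35 in prevention (means 8.42 ± 1.59 and 5.07 ± 0.131, SD, n = 3) and by 3.40 in reversal (8.19 ± 1.07 and 4.80 ± 0.134, SD, n = 3). The HFD groups had the widest spread of this gene in each model. Probes of near-identical Cyp2b transcripts can cross-hybridise, which was not tested. The probe sets differed where Cyp2b9 in reversal CMPF stayed 1.95 above chow and Cyp2b13 was 0.14 below it (means 4.65 and 4.80). The gap of Cyp2b9 was smaller without reversal chow 2, the array that stood apart. Its chow mean was then 5.91, against 7.21 with CMPF, and that of Cyp2b13 was 4.72.

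Cyp2b10 showed neither pattern on its main probe set. Its main probe set, the one with the highest mean, read 5.60, 5.59 and 5.88 on chow, 5.66, 6.05 and 5.89 on HFD and 5.45, 5.32 and 5.82 with CMPF in prevention. In reversal it read 5.48, 5.38 and 5.83 on chow, 5.48, 5.21 and 5.48 on HFD and 5.56, 5.41 and 5.74 with CMPF. Prevention CMPF arrays 2 and 3, which almost coincided over all genes, read 5.32 and 5.82 here, further apart than any of its group means. Whether this probe set followed Cyp2b10 RNA was not tested. Chow and HFD overlapped in each model, with differences of 0.18 and -0.17. The other 2 probe sets of Cyp2b10 had means of 3.48 and 3.04, under the filter level of 4.01. Both were higher on HFD than on chow in prevention without overlap (by 0.79 and 0.42), and lay at -0.03 and -0.07 in reversal. Both are of a type that can match several transcripts.

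**Figure D1:**
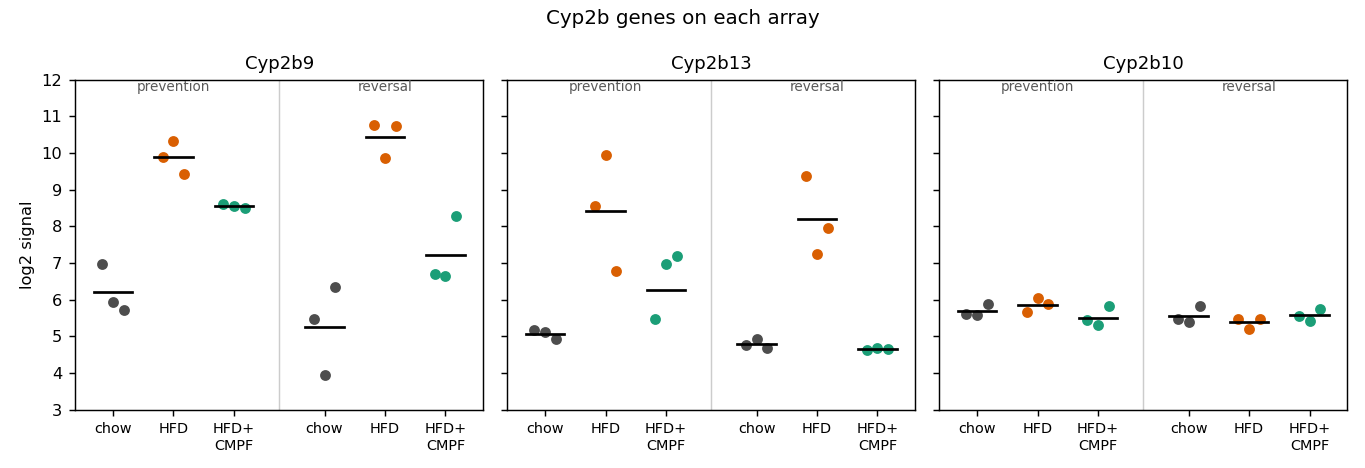
Log2 signal (y axis) of the main probe sets of Cyp2b9, Cyp2b13 and Cyp2b10 in the 6 groups (x axis). Points are arrays and lines are group means, where prevention CMPF arrays 2 and 3 count as 1 sample; heights compare within a panel and a model only. Cyp2b9 and Cyp2b13 are higher on HFD than on chow on every array, and the reversal CMPF arrays of Cyp2b13 sit at 4.62 to 4.68, near chow, while Cyp2b10 stays between 5.21 and 6.05.

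The comparison of CMPF with vehicle on HFD was tested for each gene, in a limma fit over 13228 genes with Benjamini-Hochberg adjustment. It shares the HFD arrays with the comparison of HFD with chow that was known when the genes were chosen. Choosing Cyp2b9 and Cyp2b13 for high values on those arrays can itself make CMPF minus vehicle lower. Their effects, ranks and p-values are therefore not free of that choice, in either model. In reversal the values of Cyp2b9 and Cyp2b13 were among the lowest of all genes but missed the threshold of 0.05. Cyp2b9 was at -3.24 ± 0.561 (log2 ± SE, limma adjusted p = 0.0859), lower on 3 of 3 arrays. Cyp2b13 was at -3.54 ± 0.648 (limma adjusted p = 0.0983), again lower on 3 of 3 arrays. These were the 4th and 3rd lowest of 13228 log2 differences. By limma 5 genes passed in this comparison, 0.0378% of those tested (2 higher, 0.0151%, and 3 lower, 0.0227%), and 634 had an unadjusted p under 0.05 (4.79%). None of the 7 genes was among the 5, and 0 genes passed without reversal HFD 3 or CMPF 2 and 1 without CMPF 1 or CMPF 3. Cyp2b9 passed with the 18 arrays counted separately (adjusted p = 0.0453), with the replicate block (0.0180) and, with Cyp2b13, with the index as a covariate (0.0468 for each), and neither passed in the other alternatives. Without any single array in turn Cyp2b9 lay between -3.77 and -2.96 and Cyp2b13 between -4.01 and -2.96. Marker means of other cell types also separated these arrays: 3 endothelial markers were at 8.47 to 8.74 on HFD and 8.84 to 8.91 with CMPF, and 3 cholangiocyte markers at 5.11 to 5.15 and 5.20 to 5.41. The adipocyte marker Retn was at 4.65 to 4.82 and 4.86 to 4.95. Kupffer cell markers overlapped, at 7.53 to 8.10 and 7.52 to 8.03, as did hepatocyte markers, at 13.56 to 13.73 and 13.67 to 13.82. Their part in the result was not tested.

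In prevention, with n = 2 against 3, CMPF lay below vehicle for both genes, by less. Cyp2b9 was at -1.31 ± 0.627 (limma adjusted p = 0.637) and Cyp2b13 at -2.14 ± 0.724 (limma adjusted p = 0.481). By limma 0 of 13228 genes passed, 1060 (8.01%) had an unadjusted p under 0.05, and 36 passed with the 18 arrays counted separately. The samples of Cyp2b9 did not overlap with vehicle and those of Cyp2b13 did. Here the hepatocyte mean was 13.37 to 13.42 on HFD and 13.46 in both CMPF samples, and Cd3e was at 6.10 to 6.28 and 5.85 to 6.01, without overlap, and their part was not tested. Over single samples left out Cyp2b13 ranged from -2.97 (without HFD 3) to -1.33 (without CMPF 1). The effects in reversal minus those in prevention were -1.93 ± 0.841 for Cyp2b9 and -1.40 ± 0.971 for Cyp2b13, with limma adjusted p of 0.603 and 0.786. No gene passed for this difference by limma, and 1048 (7.92%) had an unadjusted p under 0.05. Cyp2b10 was at -0.36 ± 0.164 in prevention (limma adjusted p = 0.621) and 0.18 ± 0.147 in reversal (1.00). Its prevention samples lay below HFD only with CMPF 2 and 3 averaged, since CMPF 3 alone was at 5.82, within the HFD range.

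**Figure D2:**
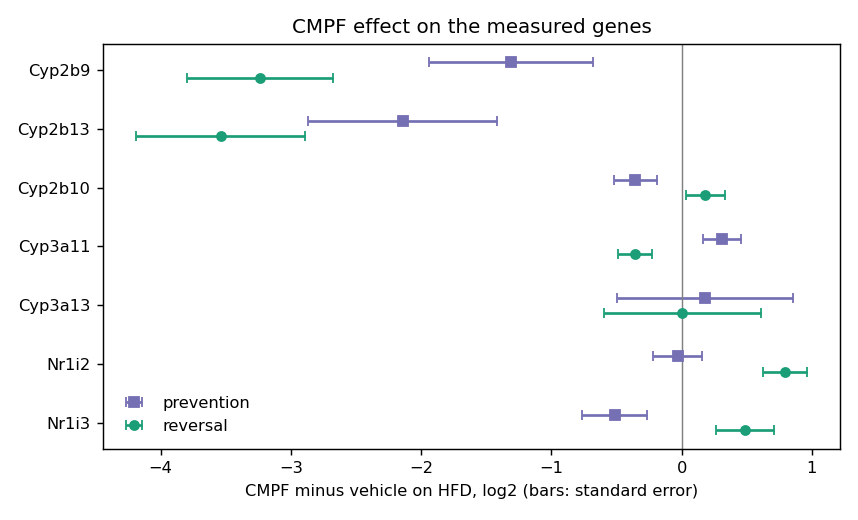
CMPF minus vehicle on HFD (x axis, log2) for the 7 genes (y axis) in prevention (squares, n = 2 against 3) and reversal (circles, n = 3 against 3). Bars are standard errors from limma. Cyp2b9 and Cyp2b13 lie at -3.24 and -3.54 in reversal, while the other 5 genes lie between -0.52 and 0.79.

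The receptors moved over a narrower range. Nr1i2, which encodes PXR, was measured by 2 probe sets past the filter. The main set read 8.02, 7.74 and 8.30 on chow, 7.65, 7.64 and 7.76 on HFD and 8.29, 8.53 and 8.62 with CMPF in reversal. The CMPF arrays there were above all HFD arrays, and 2 of 3 were above all chow arrays. The difference from vehicle was 0.79 ± 0.167 (limma adjusted p = 0.172), higher on 3 of 3 arrays. The second probe set gave 0.85, from a mean of 6.29 ± 0.167 to 7.15 ± 0.245 (SD, n = 3), also without overlap. On that set HFD was below chow in reversal (6.29 against 6.61), again without overlap. On the main set HFD and chow overlapped there through chow 2 alone, the array that stood apart. Without it HFD minus chow was -0.48. The 2 sets went opposite ways for HFD minus chow in prevention, at 0.32 on the main set and -0.18 on the second, with overlap. In prevention the main set read 7.53, 8.10 and 7.96 on chow, 7.96, 8.26 and 8.34 on HFD and 8.21, 8.13 and 8.08 with CMPF. The effect of CMPF there was -0.03 ± 0.187 (limma adjusted p = 0.985), with overlap. Reversal minus prevention was 0.83 ± 0.251 (limma adjusted p = 0.507).

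Nr1i3, which encodes CAR, had 1 probe set. It read 10.14, 10.68 and 10.45 on chow, 10.70, 10.45 and 11.05 on HFD and 10.53, 9.79 and 10.02 with CMPF in prevention. In reversal it read 10.004, 10.13 and 10.40 on chow, 9.50, 9.90 and 10.24 on HFD and 10.54, 10.34 and 10.22 with CMPF. Its groups overlapped in every comparison. CMPF minus vehicle was -0.52 ± 0.247 in prevention (limma adjusted p = 0.637) and 0.49 ± 0.221 in reversal (1.00). The difference between these effects was 1.00 ± 0.332 (limma adjusted p = 0.507).

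Cyp3a11, a broad drug and bile acid hydroxylase and a PXR target, stayed within 13.30 and 13.93 on all arrays. In prevention it read 13.57, 13.41 and 13.34 on chow, 13.37, 13.78 and 13.52 on HFD and 13.80, 13.93 and 13.93 with CMPF. The order was turned in reversal, with 13.78, 13.47 and 13.67 on chow, 13.93, 13.72 and 13.71 on HFD and 13.38, 13.30 and 13.62 with CMPF. Samples of CMPF and HFD did not overlap in either model. The differences were 0.31 ± 0.147 (limma adjusted p = 0.636) and -0.36 ± 0.131 (limma adjusted p = 0.852). HFD minus chow was 0.12 and 0.15, with overlap.

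Cyp3a13, a further Cyp3a enzyme, varied widely within groups. It read 9.83, 8.24 and 9.06 on chow, 7.86, 9.70 and 8.52 on HFD and 8.14, 9.68 and 9.52 with CMPF in prevention. In reversal it read 8.12, 6.98 and 8.75 on chow, 8.82, 10.27 and 8.57 on HFD and 9.09, 9.60 and 8.99 with CMPF. The CMPF effect was 0.18 ± 0.676 in prevention and 0.01 ± 0.605 in reversal (limma adjusted p = 0.975 and 1.00), and it changed sign without single arrays. Reversal HFD exceeded chow by 1.27, with overlap, and by 0.79 without chow 2.

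**Figure D3:**
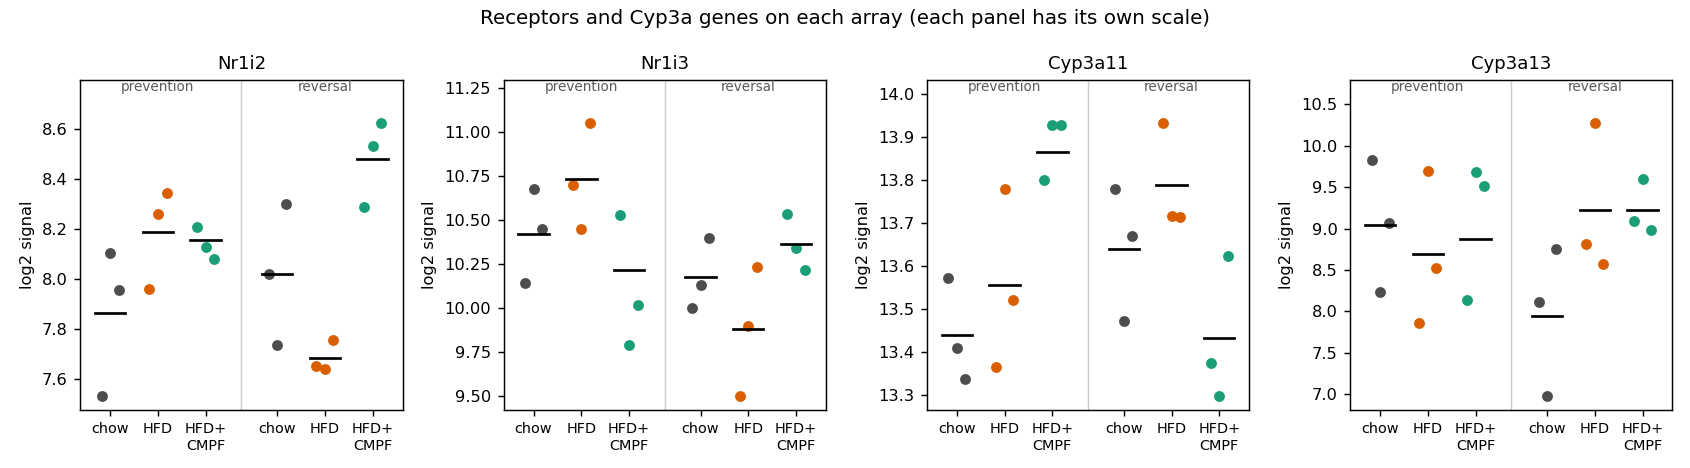
Log2 signal (y axis, a scale of its own in each panel) of Nr1i2, Nr1i3, Cyp3a11 and Cyp3a13 in the 6 groups (x axis). Points are arrays and lines are group means, with prevention CMPF arrays 2 and 3 counted as 1 sample. The reversal CMPF arrays of Nr1i2 (8.29 to 8.62) lie above the HFD arrays (7.64 to 7.76), and Cyp3a11 shows CMPF above HFD in prevention and below it in reversal.

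Over the 7 genes, CMPF samples lay below vehicle without overlap in reversal for 3 (Cyp2b9, Cyp2b13 and Cyp3a11), where 5.03% of all genes did, and above it for Nr1i2 (3.79% of all genes). In prevention they lay below it for 2 (Cyp2b9 and, after averaging, Cyp2b10; 11.1% of all genes) and above it for Cyp3a11 (19.7%). The vehicle arrays are the HFD arrays on which Cyp2b9 and Cyp2b13 were known to be high, so the counts below vehicle are not free of that choice. The median effect was 0.01 in reversal and -0.36 in prevention, against -0.01 and 0.02 over all genes tested. On HFD against chow, Cyp2b9 and Cyp2b13 were higher without overlap in each model (12% of all genes in prevention and 14.7% in reversal), which was known when the set was chosen, and the other 5 overlapped. Over all genes 17.2% and 8.59% were lower without overlap, and 5.57% and 2.45% passed the limma test in either direction.

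Other Cyp2 genes surround the Cyp2b genes. From Cyp2s1 to Cyp2t4, chr7:25802469-27158564, the gene table lists 18 protein-coding genes, 13 of them Cyp2 genes. Besides the Cyp2b genes described, 4 were tested: Cyp2s1, Cyp2g1, Cyp2a12 and Cyp2f2. Cyp2b19 was below the filter, and Cyp2a4, Cyp2a5, Cyp2a22, Cyp2b23 and Cyp2t4 were not analysed here. In prevention Cyp2f2, a periportal enzyme, fell on HFD by 0.93 ± 0.136 (limma adjusted p = 0.00931; 3.83% of all genes fell). With the index as a covariate it was at -0.70 (adjusted p = 0.0715), and its call was also lost without chow 1 or chow 3. No other neighbour passed: HFD effects of Cyp2s1 were 0.03 and 0.03, of Cyp2g1 -0.08 and 0.30, and of Cyp2a12 -0.47 and 0.05 in prevention and reversal. Under CMPF Cyp2f2 was at 0.70 in prevention (limma adjusted p = 0.252) and 0.08 in reversal. The 4 neighbours lay between -0.14 and 0.70 in prevention and between 0.08 and 0.65 in reversal, with none as low as Cyp2b9 or Cyp2b13.

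**Figure D4:**
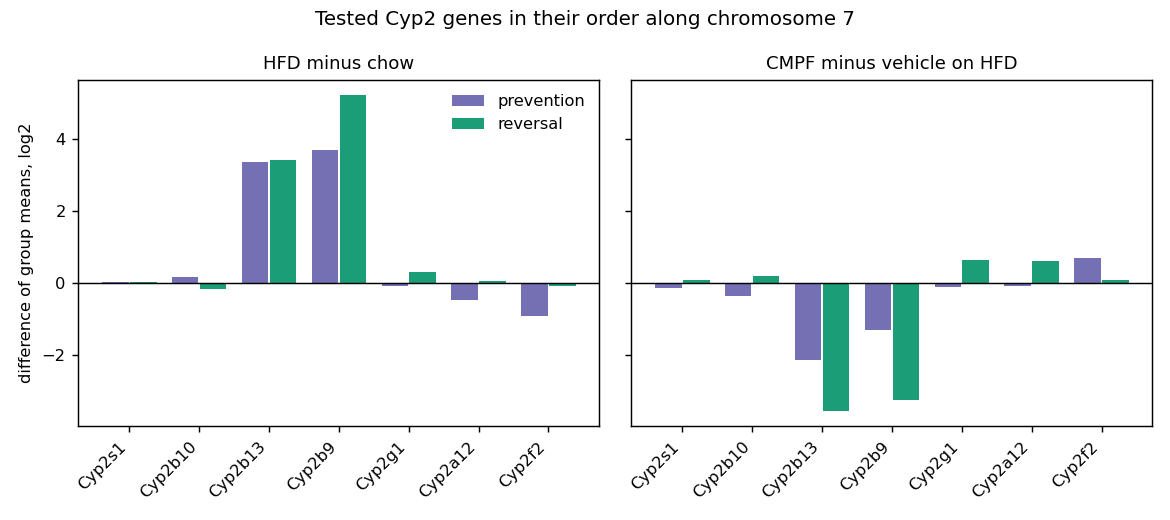
Difference of group means (y axis, log2) for the 7 tested Cyp2 genes in their order along chromosome 7 (x axis), for HFD minus chow (left) and CMPF minus vehicle on HFD (right). Bars are the 2 models. Cyp2b13 and Cyp2b9 have the tallest bars in both panels, while Cyp2b10 and the outer genes lie between -0.93 and 0.70.

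Other genes of the xenobiotic pathway were counted from lists. These and the lists below were written with earlier results of these data known. Their calls, p-values and shares are therefore descriptions, not independent tests. Of 39 further targets of CAR and PXR, 26 were tested. In prevention 2 rose on HFD (1.74% of all genes rose): Gstm3, a glutathione transferase (1.95 ± 0.472, limma adjusted p = 0.0324), and Abcc3, a basolateral conjugate exporter (0.63 ± 0.168, limma adjusted p = 0.0452). The other 24 did not pass, and the median was 0.20 against 0.00 over all genes. The index differed between these groups, and with it as a covariate 0 of the list passed, where only 17 of all genes tested did. Without prevention chow 1, chow 3, HFD 1 or HFD 2, neither call held. In reversal 2 rose (2.17% of all genes rose and 0.28% fell): Papss2, which makes the sulfate donor (0.64 ± 0.14, limma adjusted p = 0.0306), and Cyp2c50 (0.54 ± 0.116, limma adjusted p = 0.0284). The median was 0.34 against 0.03, and both calls were lost without reversal chow 1, chow 2, HFD 1 or HFD 3. Under CMPF 0 of 26 passed by limma in either model, with 4 at an unadjusted p under 0.05 in each (8.01% and 4.79% of all genes in prevention and reversal). Gstm3 had the smallest p in prevention (-1.45 ± 0.528, limma adjusted p = 0.509), and Gstt1, another glutathione transferase, in reversal (-0.72 ± 0.197, limma adjusted p = 0.467).

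Of 21 partners and regulators of these receptors 18 were tested. Ppp1r16a, a phosphatase subunit, rose on HFD in prevention (0.92 ± 0.183, limma adjusted p = 0.0179; 1.74% of all genes rose). This call was lost with the index as a covariate and without chow 1, chow 3 or any of the 3 HFD arrays. None passed in reversal by limma, where 2 had an unadjusted p under 0.05 (22.4% of all genes), and the medians were -0.18 and 0.06 in prevention and reversal, against 0.00 and 0.03 over all genes. Under CMPF 0 passed by limma, with 2 in prevention and 1 in reversal at an unadjusted p under 0.05 (8.01% and 4.79% of all genes). Nr0b2, the bile acid responsive corepressor SHP, was at 1.45 ± 0.322 in prevention (limma adjusted p = 0.252), and Foxo1, a fasting transcription factor, was at 0.81 ± 0.276 in reversal (limma adjusted p = 0.719).

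Cytochromes P450 need haem and electrons, and 17 of 19 such genes were tested. On HFD in reversal 3 rose (2.17% of all genes rose) and 14 did not pass, with a median of 0.40 against 0.03 and 16 of 17 positive (54.9% of all genes). They were Cyb5b, a cytochrome b5 (0.92 ± 0.142, limma adjusted p = 0.00711), Alad, an enzyme of haem synthesis (0.93 ± 0.214, limma adjusted p = 0.0383), and Blvra, biliverdin reductase (0.62 ± 0.153, limma adjusted p = 0.0481). The call of Cyb5b held without each array in turn, and was lost in the fits on the arrays of 1 model or of the groups compared. Alad lost its call with the index as a covariate and without chow 2 or any HFD array, and Blvra lost it with each of these and without chow 3. In prevention Urod, of haem synthesis, rose (0.70 ± 0.135, limma adjusted p = 0.0178) and Nadk, which makes NADP, fell (-0.43 ± 0.114, limma adjusted p = 0.0428), where 1.74% of all genes rose and 3.83% fell. Both lost their calls with the index as a covariate and without chow 1, chow 3, HFD 1 or HFD 2, and Nadk without HFD 3 as well. Under CMPF 0 passed by limma, with 1 in prevention and 0 in reversal at an unadjusted p under 0.05 (8.01% and 4.79% of all genes). Of 8 genes of the aryl hydrocarbon receptor pathway 7 were tested. By limma 0 passed on HFD in prevention or reversal (5.57% and 2.45% of all genes). Under CMPF 0 passed as well (0% and 0.0378% of all genes). At most 1 had an unadjusted p under 0.05 in each comparison. Over all genes this share was 24.8% and 22.4% on HFD and 8.01% and 4.79% under CMPF, in prevention and reversal. Nqo1, a quinone reductase, was at 0.68 ± 0.243 on HFD and -0.66 ± 0.243 with CMPF in reversal (limma adjusted p = 0.135 and 0.852).

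Since Cyp2b9 and Cyp2b13 are female-biased, sex-biased genes were counted too, from lists also written with earlier results of these data known. Of 17 other female-biased genes 8 were tested, and Cd36, the fatty acid translocase, rose on HFD in both models (2.25 ± 0.512 and 3.22 ± 0.512, limma adjusted p = 0.0291 and 0.00752). With it rose Fmo2, a flavin monooxygenase, in prevention (0.91 ± 0.201, limma adjusted p = 0.0261) and Hao2, a hydroxyacid oxidase, in reversal (3.69 ± 0.682, limma adjusted p = 0.0155). The other 6 did not pass in each model (1.74% of all genes rose in prevention and 2.17% in reversal). The list medians were 0.30 and -0.02, against 0.00 and 0.03 over all genes. On HFD 7 of 8 were positive in prevention (50.2% of all genes) and 4 of 8 in reversal (54.9%). Fmo2 was among the negative ones in reversal, at -0.49 ± 0.201 (limma adjusted p = 0.177). The prevention calls of Cd36 and Fmo2 were lost with the index as a covariate and without chow 1, chow 3, HFD 1 or HFD 2. Hao2 lost its call without reversal HFD 1 or HFD 3. Under CMPF 0 passed by limma, with 3 of 8 at an unadjusted p under 0.05 in each model (8.01% of all genes in prevention and 4.79% in reversal). Hao2 was at -3.70 ± 0.682 (limma adjusted p = 0.0983) and Cd36 at -2.44 ± 0.512 (limma adjusted p = 0.170) in reversal, and 7 of 8 were negative in prevention (46.8% of all genes) and 6 of 8 in reversal (52.5%).

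Of 16 male-biased genes 12 were tested. In prevention 7 fell on HFD and 5 did not pass (3.83% of all genes fell), all 12 were negative (49.7% of all genes) and the median was -1.23 against 0.00 over all genes. Ugt2b38, a glucuronosyltransferase, fell by 2.97 ± 0.432 (limma adjusted p = 0.00931), C6, a complement component, fell by 1.82 ± 0.277 (0.0105), Hsd3b5, a steroid dehydrogenase, fell by 1.78 ± 0.435 (0.0331) and Cyp7b1, an oxysterol hydroxylase, fell by 1.40 ± 0.367 (0.0417). With the index as a covariate 4 of the 12 passed, where 17 of all genes tested did. Ugt2b38, C6 and Cyp7b1 were among these, while Hsd3b5 lost its call (limma adjusted p = 0.0573). In the main fit, leaving out chow 3 ended the calls of all 4 genes named above. Leaving out chow 1 ended those of C6, Hsd3b5 and Cyp7b1. Leaving out HFD 1 or HFD 2 ended those of Hsd3b5 and Cyp7b1, and leaving out chow 2 that of Cyp7b1. In reversal 0 passed by limma (3 at an unadjusted p under 0.05, against 22.4% of all genes), with 10 of 12 negative (45.1% of all genes) and a median of -0.31 against 0.03. Under CMPF 0 passed by limma and 9 of 12 were positive in each model (53.2% and 47.5% of all genes in prevention and reversal). The medians were 0.60 and 0.32 against 0.02 and -0.01, with 5 and 1 at an unadjusted p under 0.05 (8.01% and 4.79% of all genes).

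The genes whose pattern was most like that of a member were taken by Pearson correlation over the 17 samples, each value less the mean of its model. These are descriptions, and the samples share their groups. For Cyp2b9 the closest of 13227 other genes were Cd36 (r = 0.935), Pmm1, a phosphomannomutase (0.914), Mogat1, a monoacylglycerol acyltransferase (0.908), Cryz (0.904) and Mfn2, a mitochondrial fusion protein (0.900). Cd36 had means of 6.43, 8.68 and 8.06 on chow, HFD and CMPF in prevention and 6.43, 9.66 and 7.21 in reversal. For Cyp2b13 they were Tmem45b (0.935), Gstm3 (0.926), Themis, a T-cell protein (0.924), Slc22a29 (0.916) and Cyp2c39, a cytochrome P450 (0.907). Cyp2b13 ranked 33rd for Cyp2b9 (r = 0.837), and Cyp2b10 ranked 6901st (0.0247). For Cyp2b10, whose main probe set varied little, 4 of the 5 closest are Slit1, Fut4-ps1, Ehf and Cxcl17 (r from 0.825 to 0.840), the other being a predicted gene. For Cyp3a11 they were Egln3, a hypoxia-responsive prolyl hydroxylase (0.794), Cwc22, Timmdc1, Mreg and Zmat3 (0.745 to 0.767), and Nr1i3 lay far down that order, at r = -0.652.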

How the data were processed

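The deposited values are log2 signals per probe set, which the authors obtained by RMA in Affymetrix Expression Console 1.1, per the submitters' processing notes; which arrays were processed together is not given in the sources used here. Of 45101 probe sets, 34945 had 1 gene symbol, 932 had several and were not used, 9160 were not listed in the probe table, and a further 64 were controls. The 40% with the lowest mean were dropped, the probe set of highest mean over all arrays stood for a gene, and 13228 genes were tested. One limma 3.58.1 model (R 4.3.3) of 6 group means over 17 samples (11 residual degrees of freedom, prior 3.02) gave each effect, with Benjamini-Hochberg adjustment over all genes and a threshold of 0.05. The 7 genes, the gene lists and the rule for named genes (all members; up to 4 called genes of a list by size, otherwise up to 2 by p; the 5 most alike) were chosen with earlier results of these data known. The pipeline was tested on simulated data. Start regions are from RefSeq (GRCm38.p6; all 8 genes matched), and were aligned with Biopython 1.88. Same-numbered arrays were not paired: of 16 pairs, 6 deviated together with a correlation over 0.1.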

Additional observations from a re-analysis of the deposited data

Results flagged for a closer look

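The effect of CMPF on Cyp3a11 pointed opposite ways in the models, with every CMPF sample above every vehicle sample in prevention and below every one in reversal. Over all genes 19.7% were higher without overlap in prevention and 5.03% were lower without overlap in reversal. The prevention gap was narrow, with the lowest CMPF sample at 13.80 and the highest vehicle sample at 13.78. The difference, reversal minus prevention, was -0.66 ± 0.197 (log2 ± SE), and it did not pass over all genes (limma adjusted p = 0.502, and from 0.150 to 0.998 over its alternatives). Its values stayed within 13.30 and 13.93 on all arrays.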

How the results depend on the processing

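Arrays give no depth, and the number of arrays limits the precision. The direction of the CMPF effect held under every alternative run for Cyp2b9, Cyp2b13, Cyp2b10, Nr1i3 and Cyp3a11 in each model, and for Nr1i2 in reversal. The effect of Nr1i2 in prevention turned positive with the replicate block (0.030) and the other probe set (0.0056), and without HFD 2 (0.0052), HFD 3 (0.045) or CMPF 2 and 3 (0.020), ranging from -0.15 to 0.045 over single arrays left out. Over single arrays left out Cyp3a13 ranged from -0.55 to 0.91 in prevention (-0.24 without HFD 1), from -0.32 to 0.53 in reversal, and from -0.90 to 0.56 for their difference (0.35 without reversal HFD 2). Of the 7 genes, 0 passed for CMPF in reversal, against 1 with 18 arrays counted separately, 1 with the replicate block, and 2 with the index as a covariate; the averaged array took number 2 in the block, which changed no other call of a member. The cause was not tested.

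Counts over all genes moved more. For HFD in prevention, 737 genes passed, against 1151 in a fit on the arrays of 1 model, 278 on the groups compared, 17 with the index, and 8 to 1624 over single arrays left out. For HFD in reversal, 324 passed, against 38 on 1 model, 0 on the groups compared, and 99 to 577 over single arrays. For CMPF in prevention, 0 passed, against 36 with 18 arrays counted separately, 1 with quantile normalisation, and 0 to 1 over single arrays. For CMPF in reversal, 5 passed, against 3 with quantile normalisation, 0 on 1 model or the groups compared, 17 with the index, and 0 to 6 over single arrays. The cause was not tested. For the difference of the CMPF effects, 0 genes passed by limma in each alternative run, and 1048 had an unadjusted p under 0.05 as reported.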
